A study of Mus musculus with 10 samples.

Results

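The genes described here are the matrix metalloproteinases (MMP), the ADAMTS proteases and the tissue inhibitors of metalloproteinases (TIMP) of the mouse spleen. They were chosen by annotation and name, as the protein coding genes whose symbol starts with Mmp, Adamts or Timp followed by a number. Mmp8, Mmp9 and Mmp25, which neutrophils carry in their granules and membranes, were set aside. This gave 42 of the 54532 genes in the expression table, 19 MMP, 19 ADAMTS and 4 TIMP genes. Mmp1a is annotated as a polymorphic pseudogene and was not included.

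Spleens were taken from 5 DUSP6 KO and 5 WT mice on day 9 of KRN serum-induced arthritis (KSIA), the peak of disease, and 1 RNA library was sequenced per spleen. DUSP6 KO mice carried the Dusp6tm1Jmol allele, which removes the ERK phosphatase DUSP6 from all cells, and were homozygous by their sample names, although the labels call the genotype a knockdown. WT mice were C57BL/6J. Both were bought from the Jackson Laboratories, and whether they were littermates is not given in the sources used here. Mice of both groups were 8 to 12 weeks old. They had received 100 µL of arthritogenic serum by intraperitoneal injection on days 0 and 2, so every spleen came from a mouse given serum. The comparison is between the DUSP6 KO and WT lines. Loss of DUSP6 cannot be told apart from any other difference between these lines. Serum came from arthritic offspring of KRN T cell receptor transgenic and NOD mice. Libraries held 14990474 to 19822673 reads counted on genes, as recovered from the FPKM values. The deleted gene had 19.4 ± 2.81 FPKM (mean ± SD, n = 5, as for all groups that follow) in WT spleens and 0.440 ± 0.117 FPKM in the KO. The Y-linked Ddx3y was at 14.4 FPKM or more and Xist at 0.0206 FPKM or less in every library, so all the mice were male. Markers of B cells, T cells and red pulp macrophages were present in all libraries, and WT replicates 67 and 65 also held RNA of exocrine pancreas (summed marker FPKM of 14240 and 181.6, against 9.55 to 26.2 in the other 8 libraries).

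MMPs are zinc-dependent proteases that cut collagens, laminins, proteoglycans and many cell surface proteins, and most are secreted as inactive proenzymes. TIMPs bind their active sites. TIMP2 also has a part in activation, since MMP14 at the cell surface holds proMMP2 through TIMP2 while a neighbouring MMP14 molecule cleaves it. ADAMTS proteases cut aggrecan and versican, trim procollagens, process von Willebrand factor or act on microfibrils, depending on the member, and TIMP3 is the inhibitor best known to block them. In spleen these genes are mostly expressed by reticular fibroblasts, endothelium and macrophages, and in joints their enzymes degrade cartilage.

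The inhibitor gene Timp2 was the most abundant of these transcripts. FPKM, the unit of the values, is the number of fragments counted for a gene, divided by its length and by the depth of the library, so levels can be set beside each other between genes. Of the 42 genes, 2 had a mean of 10 FPKM or more over the 10 libraries, 15 were between 1 and 10 FPKM, 14 between 0.1 and 1 FPKM, 9 had reads but less than 0.1 FPKM, and 2 had no read in any library. Timp2 was the highest, and its lowest library (52.9 FPKM) was well above the highest library of the next gene, Mmp14 (14.4 FPKM). Timp2 made up 85.1% to 88.7% of the summed TIMP signal of each library. Below it, Mmp14, Adamts10, Mmp23, Mmp2 and Timp3 followed in order of mean level, and the ranges of neighbours in this order overlapped. Timp3 (4.98 to 9.91 FPKM) lay above Timp1 (2.08 to 4.37 FPKM) without overlap. From Timp1 downwards to Mmp11, each gene overlapped with the next. Of the protease genes, Mmp14 had the highest mean in both genotypes.

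**Figure D1:**
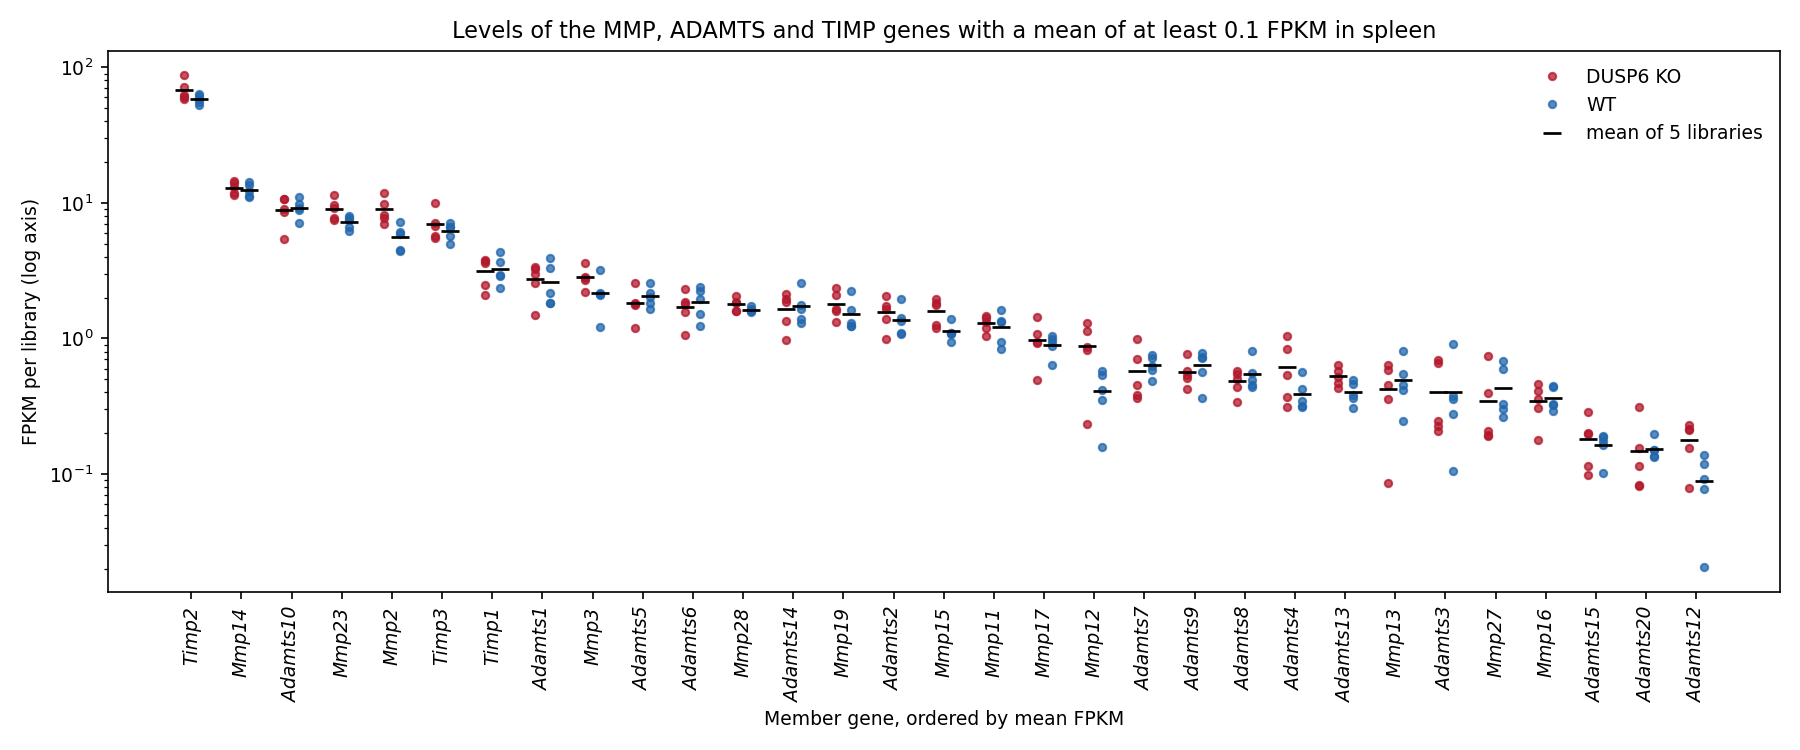
FPKM on a log axis of the 31 genes that averaged 0.1 FPKM or more, in order of mean level; each point is 1 library (5 DUSP6 KO, 5 WT) and the black lines are group means. Timp2 stands apart at the top, with 52.9 to 87.3 FPKM, and the values of DUSP6 KO and WT spleens overlap for each gene.

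The comparison of DUSP6 KO with WT spleens asks which of these genes differ between the 2 groups of arthritic mice. Mmp2, Mmp15 and Mmp23 were higher in spleens of DUSP6 KO mice at an unadjusted p under 0.05, no gene of the set was lower, and none passed adjustment over all genes. The test was limma on log2(FPKM + 0.1), fitted to all 21296 genes that averaged 0.1 FPKM or more. Of the 42 genes, 31 reached that level: 13 MMP, 15 ADAMTS and 3 TIMP genes. The 3 higher genes are 9.68% of the 31, and 2.62% of all genes tested were higher at the same p. The absence of lower genes stands beside 3.03% lower among all genes tested, and 5.66% passed in either direction. Mmp8, set aside by the selection, was lower at this p (unadjusted limma p 0.0238) and is not in the count. No gene of the set had a Benjamini-Hochberg adjusted p of 0.05 or less, which 0.0704% of all genes tested had. Outside the set, Vcan, Marco, Cd209b and Lum passed adjustment in the study's own test, DESeq2 on counts. Here their limma adjusted p was 0.258 to 0.462, so a gene that does not pass here may pass in that test. No gene of the set had groups that did not overlap, a pattern shown by 0.549% of all genes tested in the higher and 0.563% in the lower direction. The count of 3 fell to 1, Mmp2, when DUSP6 KO replicate 21, 01 or 03 was left out.

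The log2 fold change was above 0 for 19 of the 31 genes (61.3%, against 49.0% of all genes tested), with a median of 0.057 and a range of −0.32 to 0.87. The median over all genes tested was −0.0046. The MMP and ADAMTS genes lay differently around 0. Among the MMP genes, 10 of 13 were above 0 (median 0.12), while among the ADAMTS genes it was 7 of 15 (median −0.08, range −0.18 to 0.56). The MMP count leaves out the 3 genes set aside, Mmp8, Mmp9 and Mmp25, which all had log2 fold changes below 0 (−1.01 to −0.31). Of the 3 TIMP genes tested, Timp2 and Timp3 were above 0 and Timp1 below. These counts carry no test of their own. In whole spleen, more cells of a type and more RNA per cell cannot be told apart.

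**Figure D2:**
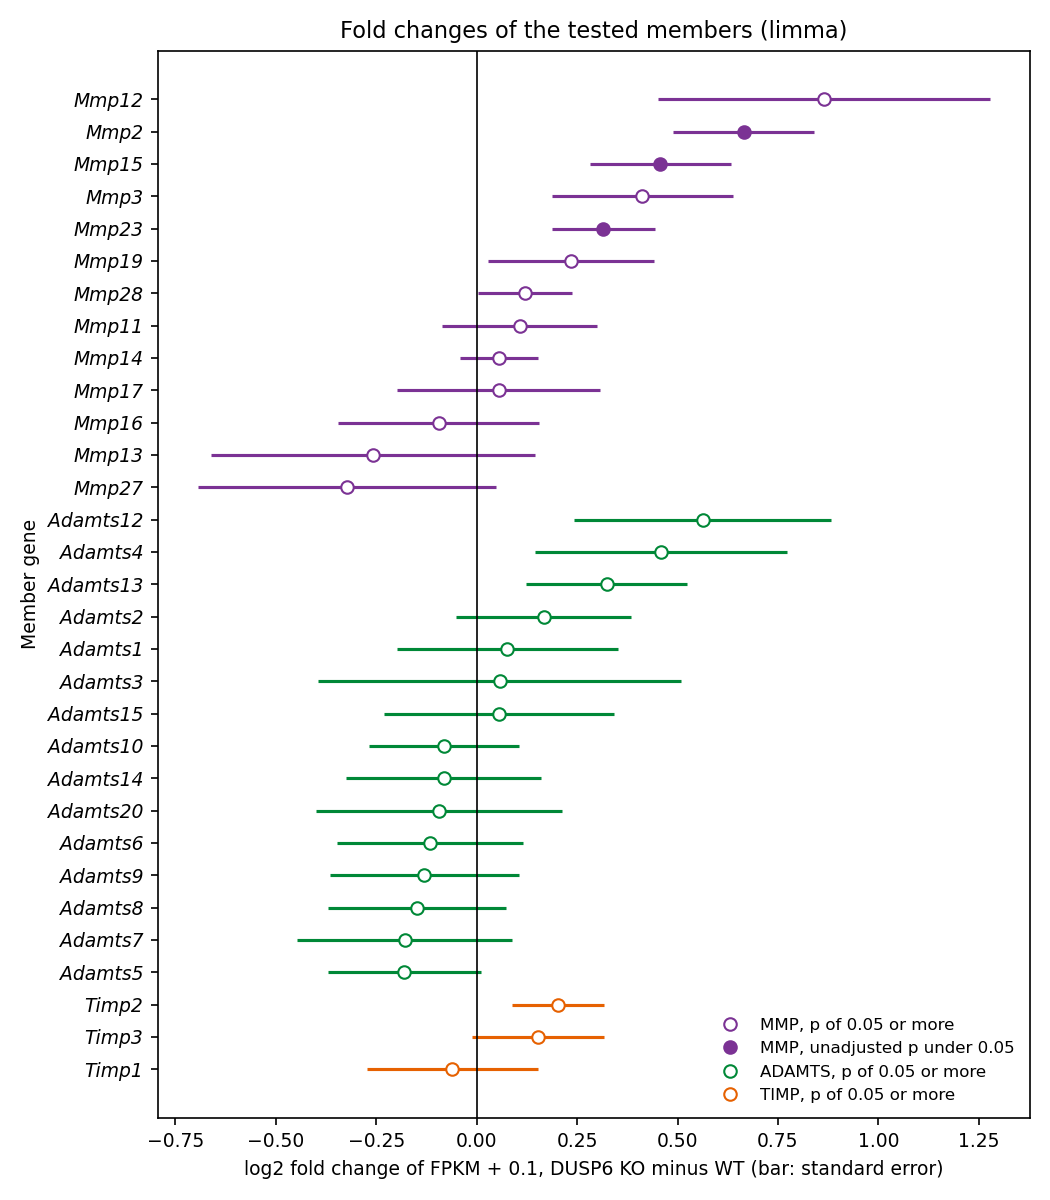
Log2 fold change of FPKM + 0.1, DUSP6 KO minus WT, for the 31 tested genes, with bars for the standard error; filled points have an unadjusted limma p under 0.05. Mmp2, Mmp15 and Mmp23 are the filled points, the MMP genes lie mostly to the right of 0 and the ADAMTS genes on both sides.

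Mmp2 encodes gelatinase A, which degrades denatured collagen and the type IV collagen of basement membranes. It lies on chromosome 8, positions 92827291 to 92853420 (+ strand, GRCm38). In DUSP6 KO replicates 26, 21, 73, 01 and 03 it was at 7.01, 11.9, 8.18, 7.76 and 9.85 FPKM. In WT replicates 65, 67, 73, 77 and 83 it was at 5.86, 4.41, 4.46, 7.19 and 6.08 FPKM. Thus 4 DUSP6 KO libraries were above every WT library, and replicate 26 fell just under WT replicate 77. The means were 8.94 ± 1.95 and 5.60 ± 1.18 FPKM, a log2 fold change of 0.66 (SE 0.18). A two-sided exact permutation test of the 5 against 5 values gave p = 0.0159, where the smallest possible is 0.00794, and the limma adjusted p was 0.462 (unadjusted, 0.00316). Over 20 other settings, including leaving out each library, the limma p of Mmp2 stayed between 0.00139 and 0.00929, and its adjusted p between 0.293 and 0.758.

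Mmp15 encodes a membrane-type MMP that, like MMP14, acts at the cell surface and can activate proMMP2. It lies on the same chromosome as Mmp2, at positions 95352268 to 95375080 of chromosome 8. DUSP6 KO libraries, in the order given above, had 1.20, 1.95, 1.27, 1.76 and 1.82 FPKM, and WT libraries 1.40, 1.09, 0.945, 1.10 and 1.10 FPKM. Replicates 21, 01 and 03 of DUSP6 KO were above all WT values and the other 2 lay under WT replicate 65. Means were 1.60 ± 0.343 and 1.13 ± 0.165 FPKM (log2 fold change 0.46, SE 0.18, exact permutation p = 0.0476, limma adjusted p = 0.789). The unadjusted limma p, 0.0254, rose to at most 0.0616, when replicate 21 of DUSP6 KO was left out, and was also 0.05 or more without DUSP6 KO replicate 01 or 03 or WT replicate 73.

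Mmp23 encodes an unusual MMP made as a type II membrane protein, with a cysteine-rich and an immunoglobulin-like domain in place of the hemopexin domain. It lies on chromosome 4, positions 155650655 to 155653384. Its values were 7.47, 11.5, 7.73, 9.13 and 9.58 in DUSP6 KO and 6.22, 6.63, 8.03, 7.79 and 7.44 FPKM in WT spleens. Again replicates 21, 01 and 03 of DUSP6 KO lay above all WT libraries, while replicates 26 and 73 lay among the higher WT values. The means were 9.08 ± 1.61 and 7.22 ± 0.770 FPKM (log2 fold change 0.32, SE 0.13, exact permutation p = 0.0635, limma adjusted p = 0.815). Its unadjusted limma p, 0.0319, was 0.05 or more without DUSP6 KO replicate 21, 01 or 03 or WT replicate 65 or 67, up to 0.0782, and was 0.0719 with limma voom on recovered reads.

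Mmp12, macrophage elastase, had a log2 fold change of 0.87, the largest of the 31 genes at the pseudocount of 0.1, with a standard error of 0.41 that left its unadjusted limma p at 0.0611 (adjusted p = 0.921). Its DUSP6 KO values were 0.866, 1.31, 0.236, 0.816 and 1.14 FPKM and its WT values 0.533, 0.579, 0.353, 0.158 and 0.416 FPKM. All DUSP6 KO libraries but replicate 73 were above every WT library, and replicate 73 was below 4 of the 5 WT libraries. With all 10 libraries the exact permutation p was 0.0952. Without replicate 73 the unadjusted limma p was 0.00322 (log2 fold change 1.21), and with any other library left out it was 0.0503 (without WT replicate 67) to 0.143 (without WT replicate 77, log2 fold change 0.64). The log2 fold change was 0.39 at a pseudocount of 1, below the 0.59 of Mmp2, and 1.02 with limma voom on recovered reads, below the 1.11 of Adamts12, which also had the larger value at a pseudocount of 0.01. These levels rest on 25 to 184 reads per DUSP6 KO library and 19 to 80 reads per WT library, and the pseudocount understates changes at such levels. Mmp12 overlaps Mmp1b on the opposite strand, and Mmp1b had no read.

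**Figure D3:**
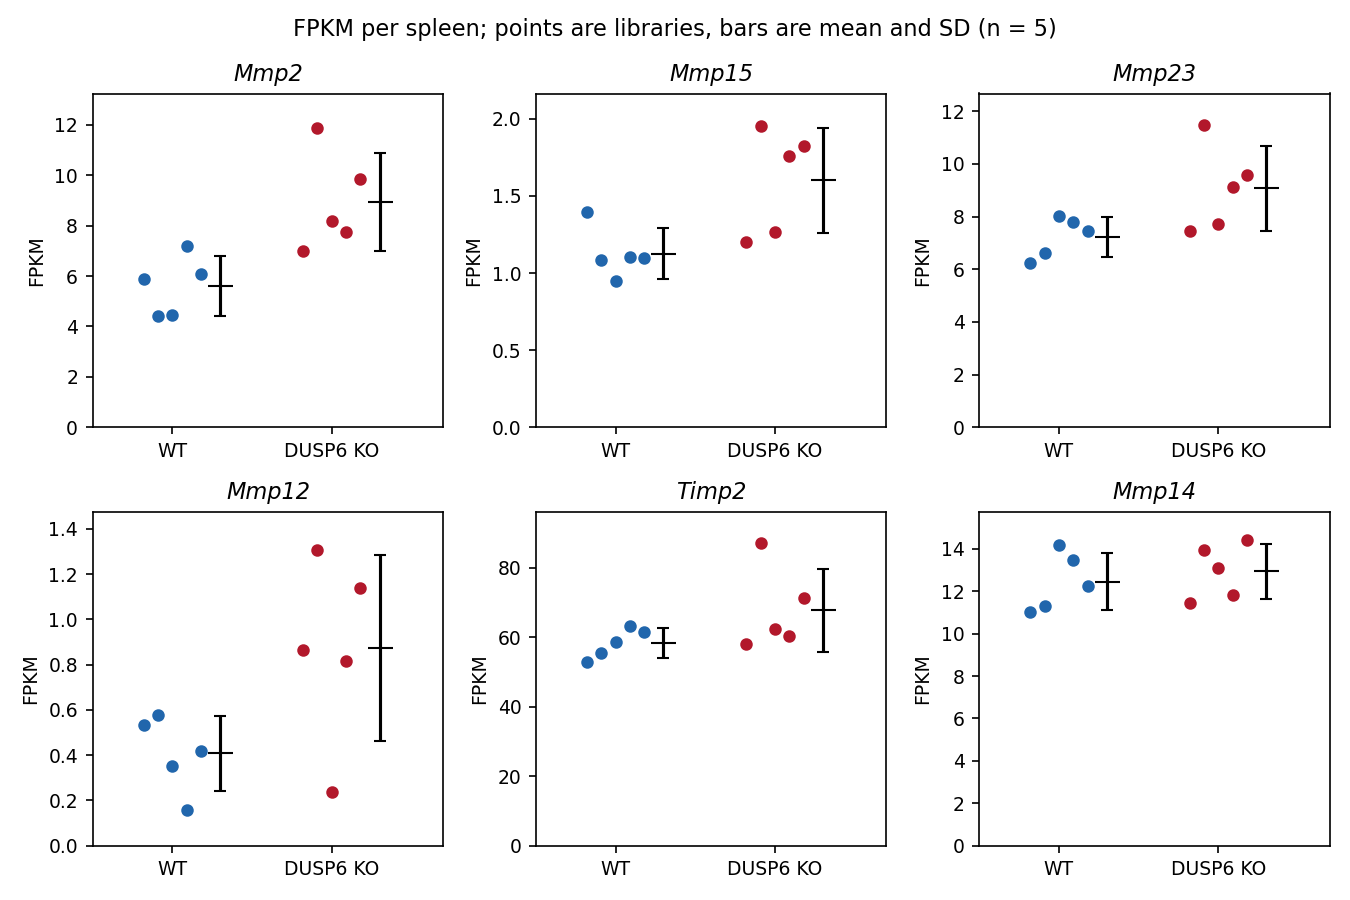
FPKM of Mmp2, Mmp15, Mmp23, Mmp12, Timp2 and Mmp14 in each spleen (points), with group mean and SD (bars, n = 5 per group), on axes that start at 0. For Mmp2, 4 of 5 DUSP6 KO spleens lie above the WT spleens, whereas the groups overlap almost wholly for Mmp14 (11.5 to 14.4 against 11.0 to 14.2 FPKM).

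Mmp14 and Timp2, whose products hold and activate proMMP2 at the cell surface, did not pass the unadjusted test. Mmp14 was at 12.9 ± 1.28 in DUSP6 KO and 12.4 ± 1.36 FPKM in WT spleens, with ranges of 11.5 to 14.4 and 11.0 to 14.2 FPKM. The log2 fold change was 0.06 (SE 0.10, exact permutation p = 0.571, limma adjusted p = 0.993). Timp2 was at 57.9, 87.3, 62.3, 60.4 and 71.3 in DUSP6 KO and 52.9, 55.4, 58.7, 63.4 and 61.6 FPKM in WT libraries, with DUSP6 KO replicates 21 and 03 above all others. Its log2 fold change was 0.20 (SE 0.11, exact permutation p = 0.127, limma adjusted p = 0.944), and 0.11 without DUSP6 KO replicate 21. Timp2 shares its locus (chromosome 11, 118301069 to 118355740) with Cep295nl on the same strand. Reck, a membrane-anchored inhibitor of MMP2, MMP14 and MMP9, was at 3.24 ± 1.05 and 2.88 ± 0.422 FPKM.

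Among the other inhibitors, Timp3, which is bound in the matrix, was at 5.74, 9.91, 5.49, 7.08 and 6.80 in DUSP6 KO and 5.67, 4.98, 6.60, 7.11 and 6.64 FPKM in WT spleens. Only replicate 21 stood above the WT range (log2 fold change 0.15, exact permutation p = 0.437, limma adjusted p = 0.986, and 0.02 on the log2 scale without that library). Timp1, an inhibitor induced in inflammation, was at 3.80, 3.59, 2.46, 2.08 and 3.73 in DUSP6 KO and 2.90, 4.37, 3.66, 2.37 and 2.95 FPKM in WT libraries. The Timp1 groups covered nearly the same range (log2 fold change −0.06, SE 0.21, exact permutation p = 0.802, limma adjusted p = 0.995), and the sign turned without DUSP6 KO replicate 73 or 01 or WT replicate 67 (0.01 to 0.07). Timp4 was close to absent, with 0 to 1 read per DUSP6 KO library, and in WT with reads in replicates 65 and 67 only (0.0397 and 0.133 FPKM, up to 15 reads), the 2 libraries with pancreas RNA. Whether the Timp4 reads came from that tissue was not tested. Timp1, Timp3 and Timp4 overlap the synapsin genes Syn1, Syn3 and Syn2 on the opposite strand. Since it is not known whether the counting used the strand, their reads may be shared, and Syn1 was at 0.783 and 0.534 FPKM and Syn3 at 0.0467 and 0.0486 FPKM in DUSP6 KO and WT.

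Of the other MMP genes at 1 FPKM or more, none passed the unadjusted test. Mmp3, stromelysin-1, which degrades proteoglycans and activates other proMMPs, was at 2.80, 2.20, 3.60, 2.82 and 2.71 in DUSP6 KO and 2.18, 2.09, 3.22, 2.14 and 1.21 FPKM in WT spleens. All DUSP6 KO values were above the WT median, yet 4 of them lay under WT replicate 73 (log2 fold change 0.41, SE 0.23, exact permutation p = 0.111, limma adjusted p = 0.944). Its unadjusted limma p was 0.0959 with all libraries, 0.0211 without WT replicate 73 (log2 fold change 0.56) and 0.229 without WT replicate 83 (log2 fold change 0.23). Mmp19 was at 1.80 ± 0.418 and 1.52 ± 0.423 FPKM (log2 fold change 0.23, exact permutation p = 0.286, limma adjusted p = 0.978), and Mmp28, epilysin, at 1.79 ± 0.203 and 1.63 ± 0.0597 FPKM (0.12, exact permutation p = 0.135, limma adjusted p = 0.978). Mmp11, stromelysin-3, was at 1.29 ± 0.173 and 1.21 ± 0.320 FPKM, with a log2 fold change of 0.11 (exact permutation p = 0.571, limma adjusted p = 0.993) that became −0.0037 without WT replicate 65. Mmp19, Mmp28 and Mmp11 each overlap a gene on the opposite strand. For Mmp11 this gene is Chchd10, at 18.2 and 17.3 FPKM in DUSP6 KO and WT, well above Mmp11 itself.

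The remaining MMP genes were low. Of the membrane-type genes, Mmp17 ranged from 0.494 to 1.43 in DUSP6 KO and 0.633 to 1.05 FPKM in WT, Mmp16 from 0.179 to 0.463 and 0.290 to 0.444 FPKM, and Mmp24 had 0 to 4 reads per library. The collagenase gene Mmp13 ranged from 0.0863 to 0.635 in DUSP6 KO and 0.247 to 0.803 FPKM in WT, and Mmp27 from 0.191 to 0.741 and 0.265 to 0.682 FPKM. Mmp7 (matrilysin) and Mmp10 (stromelysin-2) did not exceed 9 reads in any library. Mmp21 had up to 7 reads per DUSP6 KO library and at most 1 per WT library. Mmp20, the enamel protease, and the collagenase gene Mmp1b had no read in any of the 10 libraries, and a count of 0 allows up to 3 reads per library.

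Several of these low genes are neighbours. Mmp13, Mmp12, Mmp1b, Mmp3, Mmp10, Mmp27, Mmp20 and Mmp7 lie within 427 kb of chromosome 9 (7272514 to 7699585), the MMP gene cluster, which includes the stromelysins and collagenases that growth factors and inflammatory cytokines induce through AP-1 in fibroblasts. AP-1 is made of Fos and Jun proteins and is a textbook end point of the ERK pathway, on which DUSP6 acts. Of the 8 cluster genes of the set, 4 were tested and 0 passed the unadjusted test. The log2 fold changes of the 4 were −0.32 (Mmp27) to 0.87 (Mmp12). Mmp8, set aside here, also lies in this stretch (7558456 to 7568485) and was lower (−1.01, unadjusted limma p 0.0238, adjusted p = 0.789). It is not among the cluster genes counted or searched below. To show what these genes share, RefSeq promoter windows of 300 bases (250 before and 50 after the start, GRCm38.p6) were searched on both strands for the AP-1 letters TGANTCA, the TATA box TATAAA and the GC box GGGCGG. Windows were given for 29 of the 42 genes; Adamts4, Adamts5, Adamts6, Adamts7, Adamts8, Adamts10, Adamts15, Adamts16, Adamts19, Mmp2, Mmp16, Mmp17 and Mmp19 had none. The AP-1 letters were found in 7 of the 29 genes (24.1%), all 7 in the chromosome 9 cluster. Counted by window, they were in 7 of the 32 windows of these genes and in 7.81% of all 32851 windows. The search allowed any base in the middle, for these genes and for all windows alike. The middle base was C or G in these genes except Mmp20, whose match was the looser TGAATCA. Of the cluster, Mmp27 lacked them. Mmp12 and Mmp7 had further windows, and the matching window of Mmp12 (7347124 to 7347423) lies inside the gene, which starts at 7344381. The segments below are shown because 7 of the 8 cluster genes hold both sets of letters in a window. They start 12 bases before the AP-1 match and run for 68 bases, with the AP-1 and TATA letters in capitals.
Mmp13 (chr9:7272467-7272534, + strand): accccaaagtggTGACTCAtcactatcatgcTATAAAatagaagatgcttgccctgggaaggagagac
Mmp12 (chr9:7347318-7347385, + strand): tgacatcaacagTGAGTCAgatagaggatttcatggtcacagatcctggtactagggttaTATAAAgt
Mmp1b (chr9:7388064-7388131, - strand): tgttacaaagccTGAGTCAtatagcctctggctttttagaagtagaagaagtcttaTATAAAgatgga
Mmp3 (chr9:7445764-7445831, + strand): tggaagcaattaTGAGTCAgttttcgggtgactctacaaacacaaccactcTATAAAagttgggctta
Mmp10 (chr9:7502267-7502334, + strand): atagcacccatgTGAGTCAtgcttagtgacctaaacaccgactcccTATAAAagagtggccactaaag
Mmp20 (chr9:7628124-7628191, + strand): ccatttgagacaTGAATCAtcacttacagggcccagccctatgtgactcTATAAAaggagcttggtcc
Mmp7 (chr9:7692015-7692082, + strand): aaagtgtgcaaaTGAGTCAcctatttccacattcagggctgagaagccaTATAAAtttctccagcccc

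In each of these segments the TATA letters follow the AP-1 letters. In Mmp12 they lie after the start of its window's transcript, with the first base at position 5. The TATA letters were found in 9 of the 29 genes (31%). Counted by window, they were in 9 of the 32 windows of these genes and in 13.6% of all windows. Sharing these letters did not go with a shared level: Mmp3 was at 1.21 to 3.60 FPKM over the 10 libraries, Mmp12 at 0.158 to 1.31 FPKM, and Mmp20 and Mmp1b at 0. None of the cluster's windows held a GC box, the letters bound by Sp1, which was found in 17 of the 29 genes (58.6%). Counted by window, it was in 17 of the 32 windows of these genes and in 35.7% of all windows. The windows of the cluster held 0 to 7 CpG (median 1), those of the other genes of the set 2 to 44 (median 21), and all windows had a median of 7. Timp2 and Mmp14, the 2 most abundant genes, and Mmp15, one of the 3 genes higher in DUSP6 KO, are shown for contrast, as the 120 bases before the start with the GC box in capitals (CCGCCC is the GC box on the other strand).
Timp2 (chr11:118355412-118355531, - strand): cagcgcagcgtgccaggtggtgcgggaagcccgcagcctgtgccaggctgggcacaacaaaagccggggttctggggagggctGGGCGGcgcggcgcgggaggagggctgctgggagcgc
Mmp14 (chr14:54431478-54431597, + strand): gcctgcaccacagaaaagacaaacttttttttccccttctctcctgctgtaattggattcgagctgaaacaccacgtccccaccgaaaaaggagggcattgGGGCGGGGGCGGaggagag
Mmp15 (chr8:95352176-95352295, + strand): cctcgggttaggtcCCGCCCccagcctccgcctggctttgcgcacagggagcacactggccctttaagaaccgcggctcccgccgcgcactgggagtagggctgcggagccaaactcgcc

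In Mmp23, the other of the 3 higher genes with a window, the GC boxes lay after the start. The matches describe the sequence only, and binding was not measured.

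The ADAMTS genes gave no difference at an unadjusted limma p under 0.05. For Adamts12 and Adamts13 the exact permutation p was 0.0476, while the unadjusted limma p was 0.107 and 0.136. Adamts10, which binds fibrillin microfibrils, was the highest, at 8.52, 10.6, 5.42, 9.01 and 10.7 in DUSP6 KO and 8.92, 11.1, 9.10, 7.07 and 9.90 FPKM in WT spleens. The lowest value was that of DUSP6 KO replicate 73, and the other 4 lay inside the WT range (log2 fold change −0.08, SE 0.19, exact permutation p = 0.714, limma adjusted p = 0.993). Without replicate 73 the log2 fold change was 0.08. Its close relative Adamts6 was at 1.72 ± 0.453 and 1.87 ± 0.489 FPKM (log2 fold change −0.12, exact permutation p = 0.627, limma adjusted p = 0.993), and 0.03 on the log2 scale without DUSP6 KO replicate 73.

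The proteoglycanases include the aggrecanases, known for cartilage loss in arthritis. Adamts1 was at 2.73 ± 0.764 in DUSP6 KO and 2.61 ± 0.958 FPKM in WT, with a log2 fold change of 0.08 (SE 0.28) that turned to −0.01 to −0.03 without DUSP6 KO replicate 03 or WT replicate 65 or 67. Adamts5, the main aggrecanase of mouse cartilage, was at 1.20, 2.56, 1.76, 1.83 and 1.78 in DUSP6 KO and 1.84, 1.66, 2.17, 2.55 and 2.02 FPKM in WT libraries. Replicates 21 and 26 of DUSP6 KO were the highest and the lowest of all 10 (log2 fold change −0.18, SE 0.19, exact permutation p = 0.397, limma adjusted p = 0.986). Adamts4, the other main aggrecanase, ranged from 0.312 to 1.04 in DUSP6 KO and from 0.313 to 0.563 FPKM in WT. Adamts8, Adamts9, Adamts15 and Adamts20 stayed between 0.0821 and 0.808 FPKM in all libraries.

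Among the procollagen N-proteinases, which trim the amino end of fibrillar procollagens, Adamts2 was at 1.56 ± 0.397 and 1.38 ± 0.355 FPKM (log2 fold change 0.17, exact permutation p = 0.476, limma adjusted p = 0.993) and Adamts14 at 1.65 ± 0.479 and 1.74 ± 0.503 FPKM (−0.08, exact permutation p = 0.762, limma adjusted p = 0.993). The Adamts14 value changed sign without DUSP6 KO replicate 73 or WT replicate 67 (0.08 and 0.06). Adamts3 ranged from 0.208 to 0.689 in DUSP6 KO and 0.106 to 0.908 FPKM in WT. Adamts13, which cleaves von Willebrand factor, was at 0.577, 0.470, 0.430, 0.515 and 0.637 in DUSP6 KO and 0.380, 0.362, 0.494, 0.305 and 0.464 FPKM in WT spleens. Of these, 3 DUSP6 KO libraries were above all WT libraries (log2 fold change 0.32, SE 0.20, exact permutation p = 0.0476, limma adjusted p = 0.953).

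Adamts12 and Adamts7 act on cartilage oligomeric matrix protein. Adamts12 was at 0.0785, 0.217, 0.231, 0.211 and 0.155 in DUSP6 KO and 0.118, 0.0911, 0.138, 0.0771 and 0.0204 FPKM in WT libraries, so that all DUSP6 KO libraries but replicate 26 were above the WT libraries. These values rest on 16 to 50 and 4 to 26 reads per library. The log2 fold change was 0.56 (SE 0.32, exact permutation p = 0.0476, limma adjusted p = 0.944). Adamts7 ranged from 0.365 to 0.983 in DUSP6 KO and 0.484 to 0.750 FPKM in WT. Adamts16, Adamts17, Adamts18 and Adamts19 were under 0.1 FPKM on average and had at most 19 reads per library.

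The summed level of the set differed among the spleens of each group. Over the 42 genes, DUSP6 KO libraries had 125.0, 179.6, 128.5, 133.3 and 151.8 FPKM and WT libraries 115.2, 121.4, 129.5, 133.7 and 129.6 FPKM. DUSP6 KO replicates 21 and 03 were the highest, and the other 3 lay inside the WT range. The MMP sum was 43.5 ± 5.34 in DUSP6 KO and 35.6 ± 2.92 FPKM in WT, the TIMP sum 78.0 ± 13.9 and 67.9 ± 4.66 FPKM, and the ADAMTS sum 22.2 ± 4.57 and 22.4 ± 1.38 FPKM. Replicate 21 was the highest of all 10 libraries for 13 of the 31 tested genes (41.9%), against 15.3% of all genes tested. Adamts10, Adamts6 and Adamts14 were instead highest in WT replicate 67.

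**Figure D4:**
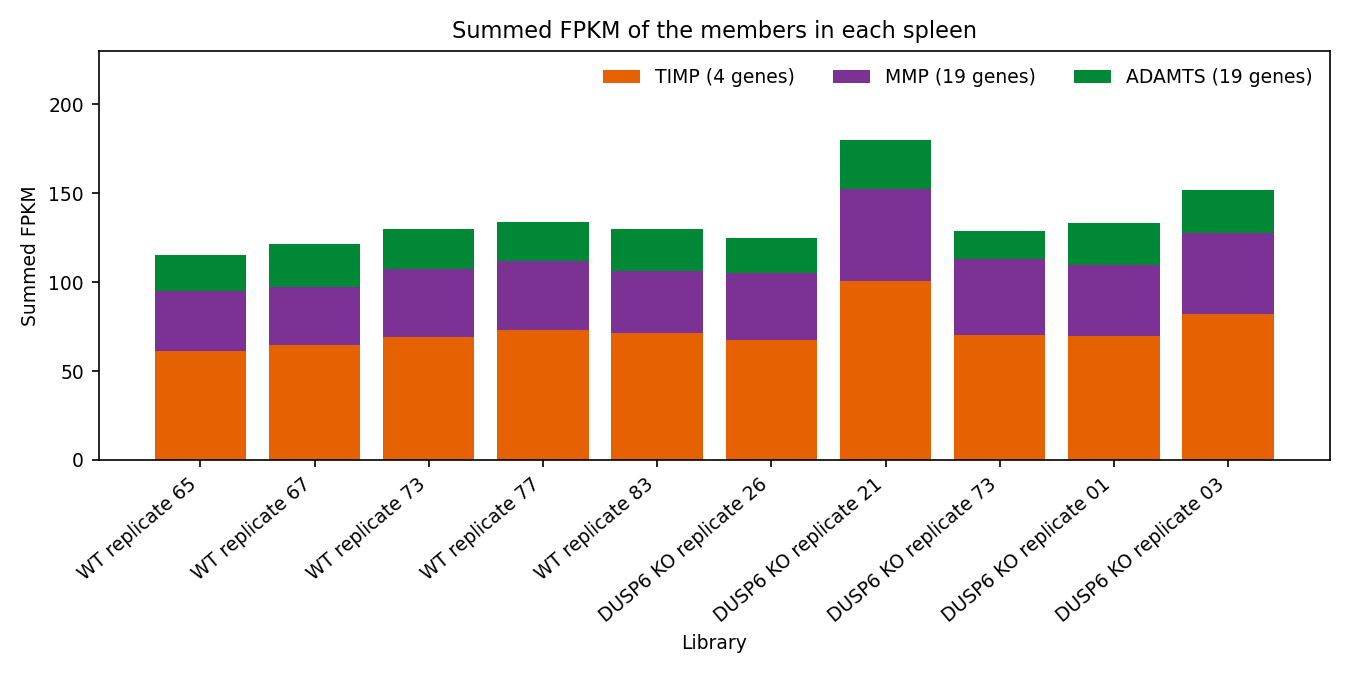
Summed FPKM of the 4 TIMP, 19 MMP and 19 ADAMTS genes, stacked for each of the 10 libraries. DUSP6 KO replicate 21 has the highest total (179.6 FPKM) and WT replicate 65 the lowest (115.2 FPKM), with the TIMP share, mostly Timp2, the largest in each.

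DUSP6 KO replicate 21 also had the highest summed FPKM of the reticular stroma markers (431.0, against 169.3 to 281.6 in the other DUSP6 KO and 173.1 to 341.7 in WT libraries), of 7 endothelial markers (99.2, against 59.1 to 92.8 in the other libraries of both groups) and of 5 smooth muscle markers (170.8). Its summed erythroid markers were the lowest, at 17370 FPKM, against 21670 in WT replicate 67 to 88910 FPKM in DUSP6 KO replicate 73. In the stroma sum, Ccl19 gave 60.9 FPKM in replicate 21 and at most 0.184 FPKM in any other library, and Ccl21a gave 120.4 FPKM there and 133.4 FPKM in WT replicate 67. A single annotated gene was used per name, and for both chemokines it lies on the scaffold JH584294.1, not on a chromosome. Ccl19 had 0 reads in every WT library. Whether these values reflect the amount of stroma was not tested. Leaving out these 2 chemokine genes was a choice made after seeing the data. Replicate 21 then had 249.8 FPKM, DUSP6 KO replicate 03 had 262.5 FPKM and the other 8 libraries had 161.6 to 208.3 FPKM. Most of these sums came from another chemokine gene, Cxcl13. It was at 165.7 FPKM in replicate 21, 187.9 FPKM in replicate 03 and 104.2 to 152.9 FPKM in the other 8, so the order of the sums rests largely on this gene. For the marker counts that follow, 2.62% of all genes tested were higher and 3.03% lower at an unadjusted p under 0.05. Groups did not overlap for 0.549% of all genes tested in the higher and 0.563% in the lower direction. Of 11 stroma markers, 1 was higher and 1 lower at an unadjusted p under 0.05. The higher marker was Pdgfrb, a receptor of fibroblasts and pericytes, at 12.4 ± 3.26 against 8.12 ± 0.625 FPKM (log2 fold change 0.57, exact permutation p = 0.0159, limma adjusted p = 0.555). The lower was Lum, a collagen-binding proteoglycan (−1.57, exact permutation p = 0.00794, limma adjusted p = 0.462). Lum lies on chromosome 10 (97565128 to 97572703), as does the deleted Dusp6 (99263231 to 99267489). Whether this location has a part in the Lum values was not tested. Of the endothelial markers, 2 were higher and 0 lower, Tek (0.35, exact permutation p = 0.0238, limma adjusted p = 0.789) and Stab2 (0.30, exact permutation p = 0.0476, limma adjusted p = 0.875). Of 7 macrophage markers, 3 were higher without overlap of the groups, Marco (0.72, limma adjusted p = 0.343), Cd209b (0.89, limma adjusted p = 0.363) and Adgre1 (0.38, limma adjusted p = 0.587). The other 4, Spic, Vcam1, Cd5l and Hmox1, had log2 fold changes of −0.50 (Cd5l) to 0.07 and did not pass. In the study's own test, DESeq2 on counts, Marco and Cd209b were higher and Lum was lower after adjustment. The summed macrophage markers overlapped between DUSP6 KO (591.6 to 1069 FPKM) and WT (663.1 to 815.2 FPKM). Of 4 monocyte markers, Csf1r was higher without overlap (0.38, limma adjusted p = 0.555), and Ly6c2 (−0.53, limma adjusted p = 0.872) and Ccr2 (−0.50, limma adjusted p = 0.797) were lower. Of 6 megakaryocyte and platelet markers, all with log2 fold changes below 0, Pf4 (−0.52, limma adjusted p = 0.767) and Itga2b (−0.49, limma adjusted p = 0.77) were lower. Of 5 mesothelium markers, Krt19 was lower (−1.45, limma adjusted p = 0.857), 0 were higher, and 1 had a log2 fold change above 0. The part of any of these cells in the values of Mmp2, Mmp15, Mmp23 and Mmp12 was not tested. The neutrophil markers went the other way, with 5 of 8 lower and 0 higher, and sums of 331.2 to 1171 in DUSP6 KO and 621.7 to 2832 FPKM in WT.

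The 3 genes set aside had log2 fold changes below 0, as had all 8 neutrophil markers, which include Mmp8 and Mmp9. Mmp8, neutrophil collagenase, was at 4.48 ± 2.14 in DUSP6 KO and 9.41 ± 5.57 FPKM in WT (log2 fold change −1.01, exact permutation p = 0.0556, limma adjusted p = 0.789). Mmp9, gelatinase B, was at 13.9 ± 5.53 and 16.7 ± 3.73 FPKM (−0.31, exact permutation p = 0.262, limma adjusted p = 0.974), and Mmp25 at 0.871 ± 0.389 and 1.46 ± 0.711 FPKM (−0.67, exact permutation p = 0.143, limma adjusted p = 0.944). The gelatinases thus had values on opposite sides of 0, Mmp2 at 0.66 and Mmp9 at −0.31, and the difference between them was not tested.

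Of 17 genes for known substrates of these proteases, 14 were tested, and Col4a1, Col4a2, Nid1 and Bgn were higher and Vcan lower in DUSP6 KO spleens by the unadjusted test. These 4 and 1 of 14 stand beside 2.62% higher and 3.03% lower among all genes tested, and the median log2 fold change of the 14 was 0.28. Col4a1 and Col4a2, the chains of the common type IV collagen, were at 32.2 ± 6.96 against 23.4 ± 2.93 FPKM (log2 fold change 0.44, exact permutation p = 0.0317, limma adjusted p = 0.747) and 25.2 ± 5.63 against 18.8 ± 1.83 FPKM (0.39, exact permutation p = 0.0397, limma adjusted p = 0.789). Nid1, which links laminin with type IV collagen, had a log2 fold change of 0.41 (exact permutation p = 0.0635, limma adjusted p = 0.863). Bgn, biglycan, was at 78.5 ± 14.6 against 58.6 ± 5.11 FPKM (0.41, exact permutation p = 0.0238, limma adjusted p = 0.623). Vcan, versican, the substrate of ADAMTS1, ADAMTS4, ADAMTS5 and other proteoglycanases, was the lower gene, at 0.159 ± 0.114 against 0.588 ± 0.0710 FPKM (−1.50, exact permutation p = 0.00794, limma adjusted p = 0.258), without overlap of the groups. None of the substrates had a limma adjusted p of 0.05 or less. In the study's own test, DESeq2 on counts of 5 spleens per group, Vcan was lower after adjustment.

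The regulators of pericellular proteolysis were 16 genes of plasminogen activation, proprotein convertases, inhibitors and receptors. Of the 14 tested, 0 were higher and 0 lower (2.62% and 3.03% of all genes tested), with a median log2 fold change of 0.05. The convertase gene Pcsk6, whose product activates proproteins, came closest (1.18 ± 0.361 against 0.773 ± 0.220 FPKM, 0.53, exact permutation p = 0.0952, limma adjusted p = 0.922). Furin, the convertase that activates MMP14, was at 8.80 ± 1.06 and 7.85 ± 0.723 FPKM (exact permutation p = 0.143, limma adjusted p = 0.953). Bsg, which induces MMPs in stromal cells, was at 234.2 ± 103.6 and 201.5 ± 63.5 FPKM (exact permutation p = 0.651, limma adjusted p = 0.993).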

How the data were processed

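Poly(A) RNA of each spleen was sequenced by a service provider. Alignment with Hisat2 and counting per gene with featureCounts (1.5.0-p3 by the submitters' processing notes) were done by the authors, who tested counts with DESeq2 and deposited FPKM, the count scaled to gene length and depth. Only these deposited FPKM values, for 54532 genes, were used here. The notes name hg38 as the build, but coordinates of 98.0% of all genes and of 41 of the 42 members are identical to GENCODE release 21 (mouse, GRCm38), so positions are given on GRCm38. FPKM was multiplied by gene length and divided by the value of a single read, which was fitted for each library. This gave whole reads for 100% of the values above 0, within 0.01 reads, or more for genes with high counts. Their sum was taken as the depth, 14990474 to 19822673 reads per library. The depth implied by the FPKM divisor differed from this sum (14652374 to 21666481 reads). Strand use in counting is not given in the sources used here, and 21 of the 42 genes overlap another gene.

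Groups came from the sample labels, and replicates carry animal numbers. A linear model (limma 3.58.1, R 4.3.3) with a trended eBayes prior was fitted to log2(FPKM + 0.1) for the 21296 genes that averaged 0.1 FPKM or more. Adjustment was by Benjamini-Hochberg over all of them, with a threshold of 0.05. Fold changes on this scale understate changes of low genes. For single genes, the 5 against 5 values were permuted exactly (252 arrangements, two-sided). Lists were counted, not tested. The script was tested on simulated data. Promoter windows came from RefSeq. Other tools were data.table (1.17.8), pandas 2.3.3, numpy 2.4.6, Python 3.11.15 and matplotlib 3.10.9.

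The genes, gene lists and tests were chosen with earlier results of these data known. Named with values were genes that averaged 1 FPKM or more, had an unadjusted p under 0.05 or did not overlap between groups, Timp1 to Timp4, and of each further list at most 4 genes with the lowest p. Per-library values of Mmp12, Adamts12 and Adamts13 were added after values were seen. So were values of Reck, Furin, Bsg, Syn1, Syn3, Chchd10, Nid1, Mmp21, Ccl19, Ccl21a, Cxcl13 and the macrophage markers that did not pass. Alternatives varied the pseudocount (1, 0.01), the minimum mean (1 FPKM, none), the prior (untrended, robust), the weighting (array weights, voom on recovered reads) and the scaling (quantile, median centring), replaced the mean by the median in the level order, and left out each library in turn.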

Additional observations from a re-analysis of the deposited data

Results flagged for a closer look

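Of 48 groups of 5 values examined for a single sample far from the others, 1 was flagged, and chance flags about 1 in 20 groups. Timp4 was at 0.00873 FPKM in DUSP6 KO replicate 21, which is 1 read, and at 0 in the other 4 DUSP6 KO libraries.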

How the results depend on the processing

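No paired analysis was possible because the groups share only 1 animal number, 73. Under 20 alternatives, 0 genes of the set passed adjustment and 0 were lower at an unadjusted p under 0.05. The count of higher genes was 5 with an untrended prior (Mmp2, Mmp15, Mmp23, Adamts12 and Adamts13), and 3 or 4 under the other settings that kept all libraries. It ranged from 1 to 4 with 1 library left out: 1 without DUSP6 KO replicate 21, 01 or 03, and 4 without DUSP6 KO replicate 73. Mmp2 had an unadjusted p under 0.05 in 20 of 20 alternatives, Mmp15 in 16, Mmp23 in 14 and Mmp12 in 4. The median log2 fold change of the set was 0.022 to 0.12. Over the whole table, 8 genes passed adjustment as higher and 7 as lower. These counts were 13 higher with array weights, 4 lower with a minimum mean of 1 FPKM, and 6 to 21 higher and 4 to 13 lower with 1 library left out (21 and 13 without DUSP6 KO replicate 21, 4 lower without WT replicate 83). Of 397 values of the named genes, 385 kept their sign and their side of the adjusted threshold, and 12 changed sign. The log2 fold change of Adamts14 was 0.0062 with array weights. With 1 library left out, ranges crossed 0 for Timp1 (−0.162 to 0.0723), Adamts10 (−0.172 to 0.0829), Adamts14 (−0.183 to 0.0829), Adamts6 (−0.246 to 0.0344), Adamts1 (−0.0294 to 0.274) and Mmp11 (−0.00366 to 0.214). The cause was not tested. With no filter, 40 genes of the set were tested, and Mmp21, under 0.1 FPKM on average, was the added higher gene (0.80, unadjusted limma p 0.0105, adjusted p = 0.813).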

Other observations

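The ADAM genes, membrane-anchored relatives of the ADAMTS proteases, were counted as a further family. Of 33 protein coding genes, 16 were tested, 1 was higher and 1 lower at an unadjusted p under 0.05, with a median log2 fold change of −0.03. Among all genes tested, 2.62% were higher and 3.03% lower at that p. Adam23, which lacks a catalytic site and binds integrins, was at 2.87 ± 0.336 in DUSP6 KO and 1.84 ± 0.421 FPKM in WT spleens (SD, n = 5; log2 fold change 0.64, exact permutation p = 0.0159, limma adjusted p = 0.433). Adam11, also without a catalytic site, was at 1.11 ± 0.421 and 1.84 ± 0.564 FPKM (−0.69, exact permutation p = 0.0635, limma adjusted p = 0.823). The 6 ADAMTS-like genes, which resemble ADAMTS proteases without the protease domain, were all tested, and 0 passed the unadjusted test in either direction, with a median log2 fold change of 0.085.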
